A study of Mus musculus with 48 samples.

Results

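The lysosomal hydrolases and membrane proteins are 34 genes for enzymes, cofactors and membrane proteins of the lysosome, chosen by name out of 32053 gene names on the array. The choice was made with earlier results of these data known, so counts of genes called describe the list and do not test it. A gene was read from every probe, control probes apart, that the array's annotation gives its name, which came to 45 probes. Of the 34 genes, 24 had 1 probe, 9 had 2 and 1 (Gaa) had 3, and each gene is described by the probe with the highest mean signal. All 34 were well above background on all 48 arrays, so none was lost to a filter on low signal. The shares of all probes printed beside them include probes that were not well above background.

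Lysosomes are acidic compartments in which proteins, glycans and lipids brought in by endocytosis, phagocytosis and autophagy are taken apart. Their soluble enzymes reach them mostly by way of a mannose 6-phosphate tag, their membrane is lined by heavily glycosylated proteins, and transcription factors of the MiT/TFE family, TFEB among them, raise many of these genes together. In the brain, microglia carry a large lysosomal system for clearing debris and pruned synapses, oligodendrocytes turn over the sulfatide and galactosylceramide of myelin in theirs, and inherited loss of several of these enzymes leads to leukodystrophy or neuronal storage disease.

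The study modelled white matter injury of the preterm brain by giving newborn mice interleukin 1 beta (IL1B), an inflammatory cytokine, and asked how sorted oligodendrocyte-lineage cells and microglia respond. Male swiss mice (OF1 in the paper's methods) received PBS or IL1B at 10 ng/g into the peritoneum from postnatal day 1 (P1) to P4 and a last time at P5. Brains were dissociated 2 h after that injection (4 h in the methods) (P5 groups) or 5 days later (P10 groups), and magnetic beads took O4+ cells first and CD11B+ cells from the same suspension afterwards. The 8 groups, of 6 arrays each, were thus O4+ cells at P5 after PBS, O4+ cells at P5 after IL1B, O4+ cells at P10 after PBS, O4+ cells at P10 after IL1B, and the same 4 for CD11B+ cells. The methods state that 3 brains were pooled for a sample, so an array may stand for a pool. In the P10 records the free description says P5 while the title, source and stage say P10; the latter were used.

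Each array held 55681 probes besides controls, read in 1 colour, and its signal over background sets the precision. Between 52.9% and 65.4% of the probes of an array were well above background, and arrays of 1 group correlated with each other at 0.962 or more. The arrays lay on 9 slides scanned on 5 days. P5 and P10 arrays shared no slide and no scan day, and each group lay on more than 1 slide. Levels are given as log2 intensity after quantile normalization, over the 24 arrays of a cell type for effects of IL1B and age, and over all 48 for differences between cell types. A gene was called when its limma p-value, adjusted over all 55681 probes, was under 0.05 and the ratio of group medians exceeded 1.5 in either direction. These p-values measure the spread between samples.

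The labelled cell types were checked against marker genes. In PBS samples all 7 oligodendrocyte-lineage, 6 progenitor and 10 myelin markers measured were higher in O4+ than in CD11B+ cells at P5 and again at P10. Microglial markers went the other way, with 14 of 15 lower in O4+ cells at either age, as were all 8 markers of border-associated macrophages and 9 of 10 of neutrophils and monocytes. The labels therefore held for the PBS groups, compared as groups. O4+ samples nevertheless carried signal for all 15 microglial markers above background on every array, with Siglech the strongest of them at P5 after PBS (16.77). The microglial list, summed, came to between 267000 and 337000 (median 314000) in O4+ PBS samples at P5 against 1400000 to 1470000 (median 1440000) in CD11B+ PBS samples, each on the scale of its own cell type. Siglech had the most signal of the list in O4+ cells at P10 as well, after PBS (16.73) and after IL1B (16.65), so this 1 marker weighs heavily in the sums for those groups. Of the lists for other cells, 1 of 6 astrocyte, 5 of 7 endothelial and 3 of 5 neuronal markers were higher in O4+ than in CD11B+ cells at P5, and 0 were lower. At P10 those counts were 2, 5 and 4 higher, with 1 endothelial marker lower.

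In PBS samples at P5, 31 of 34 lysosomal genes were called lower in O4+ than in CD11B+ cells, against 21.9% of all probes, and 0 were called higher, against 19.8%. Their median difference was -1.85 on the log2 scale, where the median probe differed by -0.049. At P10, 29 were called lower (20.2% of probes) and 1 higher (22.2%), with a median of -2.04 beside 0.0033 for all probes. The 29 genes lower at P10 were among the 31 lower at P5. The median difference was -2.41 at P5 with the 75th percentile scaling and -2.52 with the deposited matrix, where the median probe moved to -0.35 and -0.45, and at P10 it was -2.17 and -2.31, the matrix moving the median probe to -0.16. Of all probes called at P5, 47.5% were higher, and 34.6% with the matrix. On slide 2, the slide with PBS arrays of both cell types at P5, the median difference was -2.02. At P10 the PBS arrays of the cell types shared no slide, so no within-slide value exists there. With slide as a random block the median difference at P10 was -2.07. In bulk samples such as these, fewer cells of a type and less RNA per cell cannot be told apart.

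The 3 widest differences at P10 were those of Cd68, Laptm5 and Ctss, and the widest at P5 was that of Ctsc (-3.52). Cd68, a heavily glycosylated late endosomal protein used as a stain for phagocytic microglia, lay between 12.15 and 12.92 (median 12.58) in O4+ PBS samples at P5 and between 15.77 and 16.07 (median 15.83) in CD11B+ samples. At P10 its O4+ samples lay between 10.72 and 11.54 (median 10.92) and its CD11B+ samples between 15.66 and 15.92 (median 15.72). The cell types were far apart at both ages, and the distance was the wider at P10. The log2 difference was -3.30 ± 0.109 (SE) at P5 (adjusted p 1.25e-10) and -4.77 ± 0.124 at P10 (adjusted p 1.76e-11). Laptm5, a membrane protein of blood-lineage lysosomes, differed by -4.70 ± 0.136 at P10 (adjusted p 3.71e-11), its O4+ samples between 9.79 and 10.66 (median 10.12) and its CD11B+ samples between 14.74 and 14.98 (median 14.83). For Ctss, the cysteine protease that trims the invariant chain of MHC class II, the P10 difference was -4.55 ± 0.143 (adjusted p 6.8e-11).

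A few members departed from this. Galc encodes galactosylceramidase, which breaks down the main glycolipid of myelin, and its signal was low. In PBS samples at P10 it lay between 6.90 and 7.89 (median 7.49) in O4+ cells and between 6.44 and 6.76 (median 6.71) in CD11B+ cells. All 6 O4+ samples were above all CD11B+ samples, a ratio of medians of 1.71 (adjusted p 0.000319). The call was lost with normexp background correction (0.53). At P5 the groups overlapped, at a ratio of 1.25, and the gene was not called.

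Gaa, the acid glucosidase for glycogen, lay between 14.48 and 14.69 (median 14.59) in O4+ cells and between 14.35 and 14.41 (median 14.40) in CD11B+ cells at P5. Its O4+ samples were higher without overlap at P5 by a small step of 0.20 ± 0.0404, and overlapped with CD11B+ samples at P10. This direction rests on 1 of its 3 probes. A second was called lower in O4+ cells at P5 (-0.59) and P10 (-1.11), and the third, not called, differed by -0.31 and 0.26. Npc1, the membrane protein that exports cholesterol, differed by -0.50 ± 0.0689 at P5 and -0.34 ± 0.0976 at P10, without overlap and short of the fold threshold. It was called lower at P5 with the 75th percentile scaling and with the deposited matrix, and Gaa was called lower at P5 with the deposited matrix.

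Scarb2 and Lamp1, integral proteins of the lysosomal membrane of which the former carries glucocerebrosidase to the lysosome, were called lower in O4+ cells at P5 and were not called at P10, a contrast between ages that was not tested. Scarb2 lay between 10.40 and 10.62 (median 10.54) in O4+ PBS samples at P5, against 11.85 to 11.93 (median 11.91) in CD11B+ samples. At P10 the O4+ samples had moved up to between 11.47 and 12.06 (median 11.67), across the CD11B+ samples at 11.38 to 11.60 (median 11.55). Lamp1 differed by -0.59 ± 0.0388 at P5 and by -0.0076 ± 0.0498 at P10, where its groups overlapped. With the deposited matrix it was called lower at P10 too (-0.58).

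**Figure D1:**
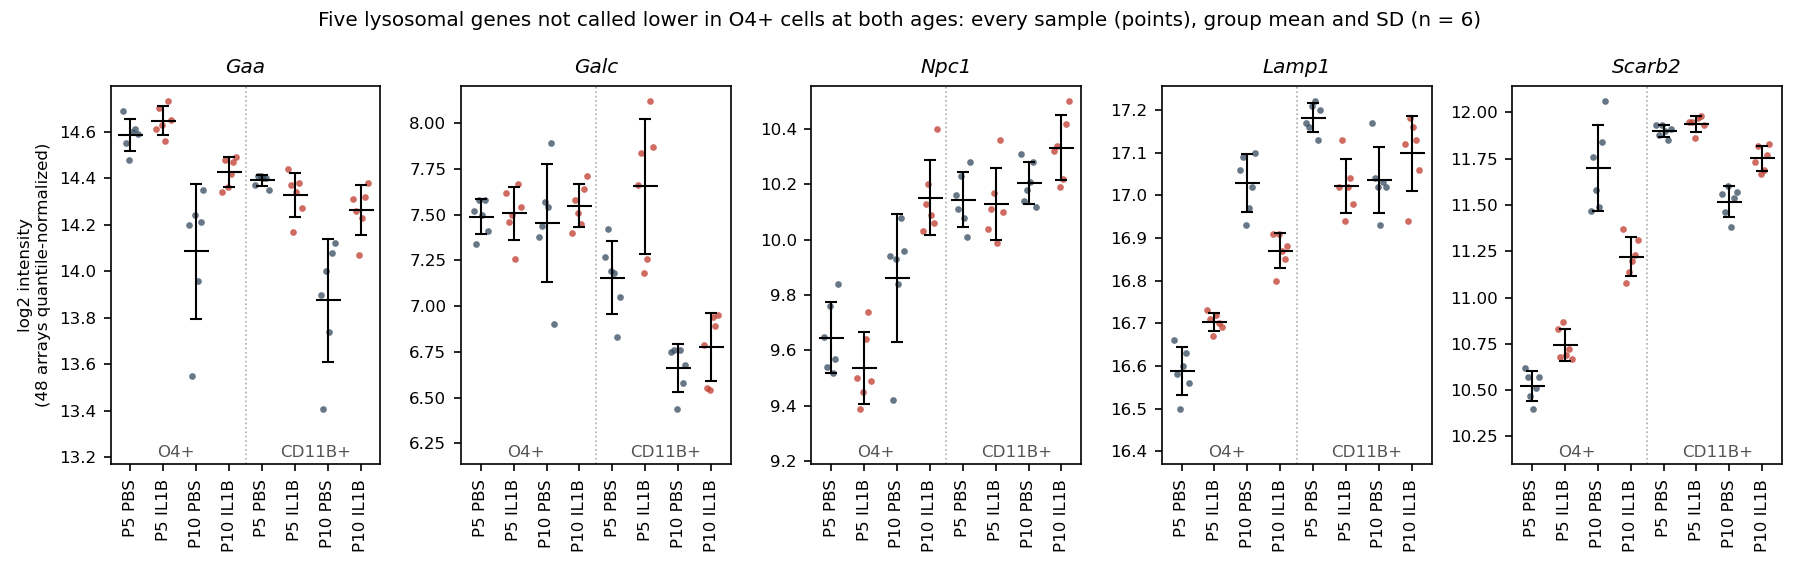
Log2 intensity (y axis, 48 arrays quantile-normalized together) of Gaa, Galc, Npc1, Lamp1 and Scarb2 in each sample (points) of the 8 groups (x axis), with group mean and SD (n = 6). In O4+ PBS samples Scarb2 rises from a median of 10.54 at P5 to 11.67 at P10, and Galc in O4+ PBS samples at P10 (median 7.49) lies above CD11B+ samples (median 6.71).

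With IL1B in O4+ cells at P5, 16 of 34 genes were called higher, against 3.45% of all probes, and 0 were called lower, against 1.47%. A second fit kept the 32557 probes well above background on all arrays of at least 1 group. There 1721 probes were called higher and 657 lower, with the same 16 genes called. The median log2 change of the 34 was 0.56 and that of all probes -0.044. Microglial and neutrophil and monocyte markers rose in the same samples, with 10 of 15 and 9 of 10 called higher. The deposited matrix moved the median probe to -0.17 and gave 12 genes, without Hexa, Manba, Lipa and Npc2. Of all probes called, 70.1% were higher, against 58.5% with the matrix and 81.5% with normexp background correction.

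The proteases led, with 7 of 10 called and a median change of 0.88. Ctss (probe at chr3:95360245-95360304, mm9) lay between 13.19 and 13.86 (median 13.77) after PBS and between 15.40 and 15.70 (median 15.62) after IL1B. The IL1B samples lay close together, more than a log2 unit above the highest PBS sample. The change was 1.95 ± 0.113, a ratio of medians of 3.61 (adjusted p 1.53e-06), the largest among the 34 genes in any of the 4 IL1B comparisons.

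Ctsc, a dipeptidyl peptidase that activates the serine proteases of neutrophil granules, is read at chr7:95458436-95458495. It lay between 9.61 and 10.27 (median 10.09) after PBS and between 11.00 and 11.62 (median 11.28) after IL1B. All IL1B samples were above all PBS samples, and the change was 1.28 ± 0.126 (ratio 2.28, adjusted p 5.41e-05). Ctsh, an aminopeptidase that also cuts inside chains (chr9:89970828-89970887), lay between 12.13 and 13.03 (median 12.68) after PBS and between 13.50 and 14.00 (median 13.87) after IL1B. Its PBS samples spread over almost a log2 unit and still stayed below every IL1B sample. The change was 1.16 ± 0.172 (ratio 2.28, adjusted p 0.00083).

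Ctsz (chr2:174253228-174253287) is a carboxypeptidase and was called in 7 of the 8 comparisons between groups, more than any other member. In O4+ cells at P5 it lay between 12.98 and 13.65 (median 13.47) after PBS and between 14.22 and 14.92 (median 14.55) after IL1B, again with no overlap. Its change was 1.14 ± 0.135 (ratio 2.11, adjusted p 0.000189). Ctsd (chr7:149561962-149562021), the main aspartic protease of the lysosome, lay between 15.17 and 15.71 (median 15.55) after PBS and between 16.16 and 16.58 (median 16.36) after IL1B. The groups were apart, by 0.83 ± 0.0966 (ratio 1.75, adjusted p 0.00016). Of the remaining proteases, Ctsa, a carboxypeptidase that also shields beta-galactosidase and neuraminidase, rose by 0.93, and Lgmn, which cuts after asparagine and matures other cathepsins, rose by 0.81. Ctsb was not called at a ratio of 1.43, though it was with the 75th percentile scaling (0.67). Ctsl and Tpp1 changed by 0.40 and 0.26.

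Because several proteases rose together, the promoters of members were searched for letters that known regulators read. RefSeq windows of 300 bases (most of them before a gene's start, GRCm38.p6) were found for 30 of the 34 genes and not for Ctsb, Ctsh, Asah1 and Npc1. On both strands, the E-box CACGTG was in 9 of the 30 (Ctsa, Ctsd, Ctsl, Lgmn, Gaa, Glb1, Naglu, Arsa and Lamp1) and in 7.15% of all 32851 promoters. The longer TCACGTGA, which contains that E-box and is the core of the element bound by TFEB, was in 2 (Ctsa and Ctsd) and in 0.974% of all promoters. GAGGAAGT, letters read by the myeloid factor PU.1, was in 3 (Ctsc, Ctss and Gusb) and in 3.2% of all. The promoters of the proteases that hold the E-box are shown 5′ to 3′ with the motif named for each in capitals, TCACGTGA in Ctsd (chr7:142387778-142388077, minus strand) and Ctsa (chr2:164833523-164833822, plus strand) and CACGTG in Ctsl (chr13:64370471-64370770, minus strand) and Lgmn (chr12:102439043-102439342, minus strand). A further CACGTG near the start of the Ctsd window is in lower case, since it is outside the longer motif. A match describes the letters in the window and nothing more, and the genes with it included Ctsd, Ctsa and Lgmn, called at P5, and Ctsl, Gaa, Glb1, Naglu, Arsa and Lamp1, not called.
Ctsd: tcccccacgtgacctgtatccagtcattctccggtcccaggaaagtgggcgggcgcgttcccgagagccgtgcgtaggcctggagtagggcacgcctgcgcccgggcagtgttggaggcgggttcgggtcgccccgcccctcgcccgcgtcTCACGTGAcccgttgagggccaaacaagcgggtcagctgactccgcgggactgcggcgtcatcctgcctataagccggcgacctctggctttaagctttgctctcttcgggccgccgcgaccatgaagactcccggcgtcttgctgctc
Ctsa: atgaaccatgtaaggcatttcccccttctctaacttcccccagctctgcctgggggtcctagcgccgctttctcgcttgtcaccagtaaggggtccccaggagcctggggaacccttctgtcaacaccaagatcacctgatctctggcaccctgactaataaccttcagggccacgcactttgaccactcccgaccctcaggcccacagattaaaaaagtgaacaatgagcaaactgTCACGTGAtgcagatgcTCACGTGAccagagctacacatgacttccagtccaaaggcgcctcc
Ctsl: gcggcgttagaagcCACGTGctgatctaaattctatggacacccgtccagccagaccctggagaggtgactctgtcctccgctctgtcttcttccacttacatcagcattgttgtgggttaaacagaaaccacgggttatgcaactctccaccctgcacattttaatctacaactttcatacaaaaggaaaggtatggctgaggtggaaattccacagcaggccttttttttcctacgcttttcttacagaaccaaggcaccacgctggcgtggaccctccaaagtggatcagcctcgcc
Lgmn: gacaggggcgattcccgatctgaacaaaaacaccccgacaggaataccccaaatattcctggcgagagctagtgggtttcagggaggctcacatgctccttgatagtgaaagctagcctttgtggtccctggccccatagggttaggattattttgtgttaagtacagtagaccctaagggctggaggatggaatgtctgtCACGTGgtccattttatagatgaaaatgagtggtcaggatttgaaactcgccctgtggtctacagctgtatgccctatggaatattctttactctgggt

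Glycosidases and sulfatases, which strip sugars and sulfate groups, gave 4 of 10 called at a median change of 0.49. Man2b1 (chr8:87621348-87621407), an acid mannosidase for N-linked glycans, lay between 13.18 and 13.56 (median 13.45) after PBS and between 14.26 and 14.76 (median 14.50) after IL1B. The samples separated fully, and the change was 1.09 ± 0.0877 (ratio 2.08, adjusted p 1.25e-05). Gusb (chr5:130465133-130465192), the glucuronidase for heparan, dermatan and chondroitin chains, lay between 11.69 and 12.14 (median 11.94) after PBS and between 12.49 and 12.94 (median 12.69) after IL1B. It too separated fully, by 0.79 ± 0.089 (ratio 1.68, adjusted p 0.000131), and was not called when all probes of a gene were averaged. Hexa, the alpha chain of hexosaminidase, was called at 0.73, and Manba, a beta-mannosidase, at 0.64 with groups that overlapped. Glb1, Arsa and Gaa changed by 0.10 or less.

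Among the lipid hydrolases, 1 of 4 was called. Lipa, the acid lipase for cholesteryl esters, rose by 0.56 ± 0.0854 at a ratio of 1.51, just past the threshold, and was not called with the 75th percentile scaling (0.53), normexp correction (0.55) or the matrix (0.45). Galc, Ppt1 and Asah1 were not called. Of the lipid transfer and activator proteins, Npc2, which hands cholesterol to Npc1, rose by 0.62 ± 0.0687 (ratio 1.53, not called at 0.57 with the 75th percentile scaling or 0.49 with the matrix), while Npc1 itself changed by -0.10. Psap, the precursor of the saposins that help sphingolipid hydrolases, rose by 0.50 without reaching the fold threshold.

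Grn (chr11:102297692-102297751) encodes progranulin, which is cut into granulins in the lysosome. It lay between 13.07 and 13.64 (median 13.42) after PBS and between 14.09 and 14.64 (median 14.48) after IL1B. All IL1B samples were above all PBS samples, and the change was 1.04 ± 0.108 (ratio 2.10, adjusted p 7.47e-05).

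Of the membrane proteins, 2 of 6 were called. Cd68 (chr11:69477775-69477834) lay between 12.18 and 12.92 (median 12.60) after PBS and between 13.14 and 14.03 (median 13.66) after IL1B, without overlap. Its change was 1.05 ± 0.148 (ratio 2.09, adjusted p 0.000635). Laptm5 (chr4:130490785-130490844) lay between 11.24 and 12.21 (median 11.70) after PBS and between 12.39 and 13.08 (median 12.78) after IL1B, a narrow gap between the highest PBS sample and the lowest IL1B sample. Its change was 1.05 ± 0.161 (ratio 2.11, adjusted p 0.00102). The general membrane proteins Lamp1 and Lamp2 changed by 0.11 and 0.27, and Cd63, a tetraspanin of late endosomes, by 0.49.

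**Figure D2:**
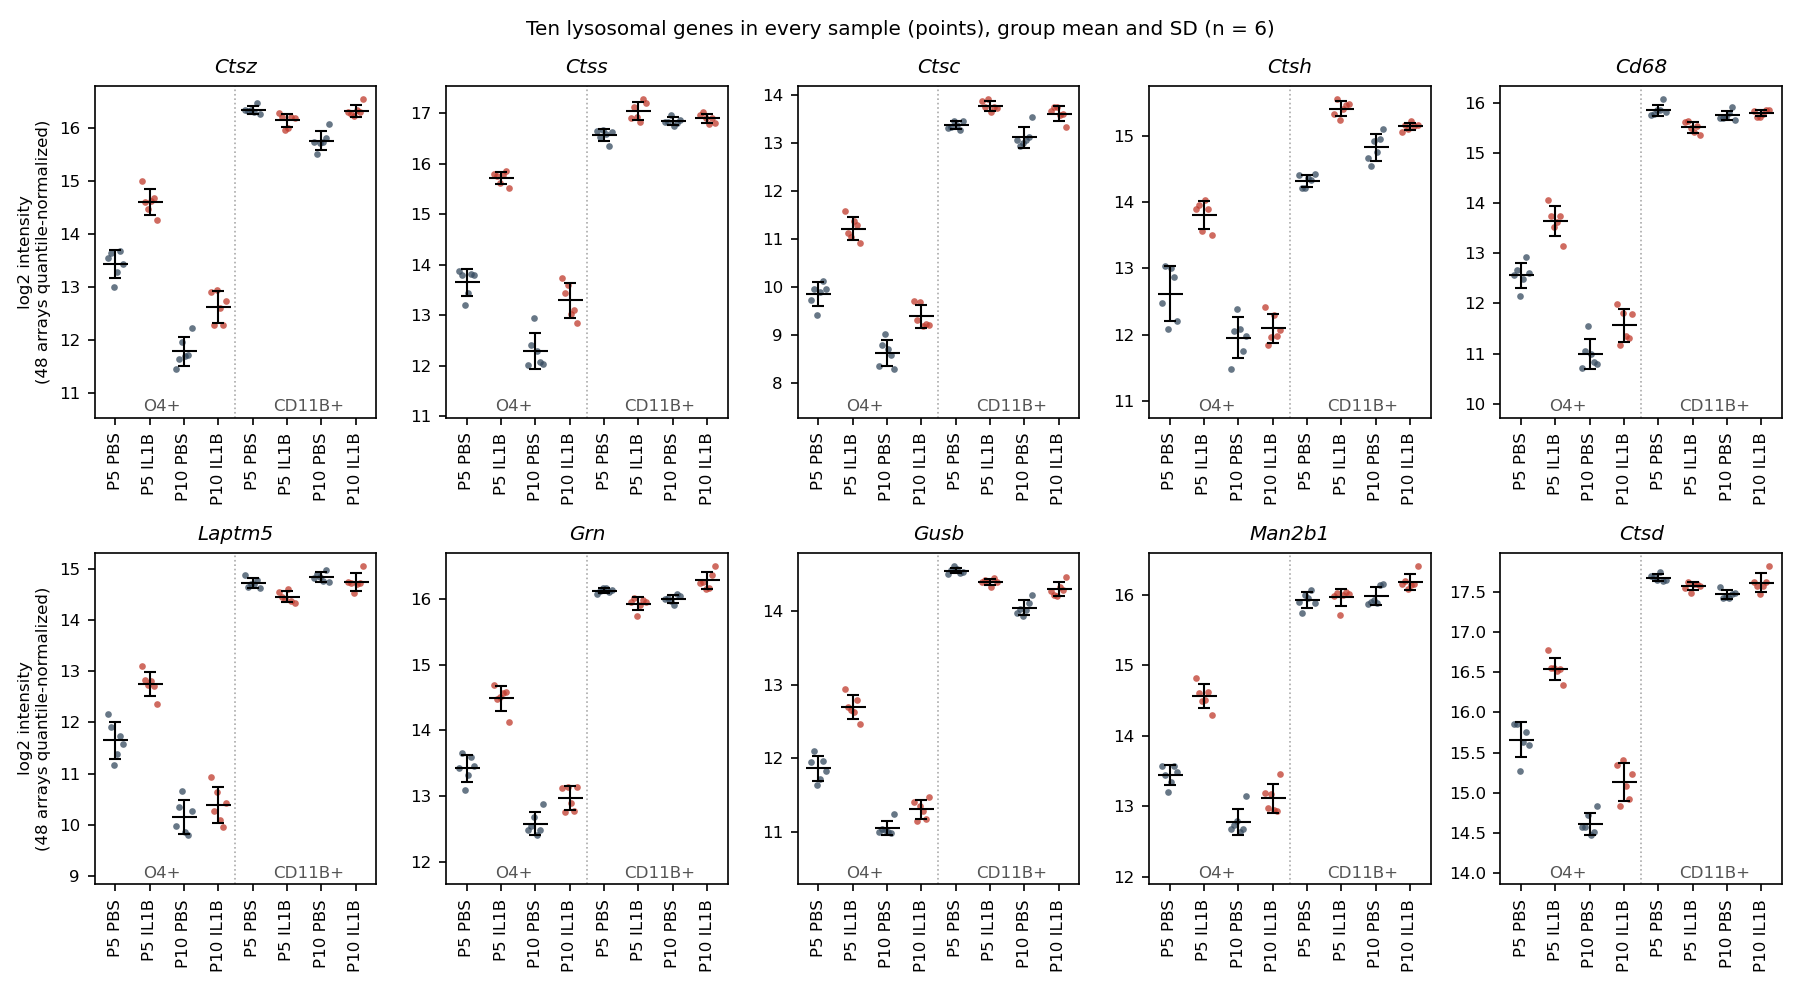
Log2 intensity (y axis, 48 arrays quantile-normalized together) of the 10 members called in most comparisons, in each sample (points) of the 8 groups (x axis), with group mean and SD (n = 6). In O4+ cells at P5 the IL1B samples lie above the PBS samples, in genes picked because this and other comparisons called them.

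Slides bear on this comparison, since 4 of the 6 PBS arrays lay on slide 1 and 4 of the 6 IL1B arrays on slide 3. Within slide 1 (4 PBS arrays, 1 IL1B array) the median change of the 34 genes was 0.51, with 31 above 0, and within slide 2 (2 and 1) it was 0.87, with 33 above 0. With slide as a term in the model 15 genes were called, all of them among the 16, at a median change of 0.65. Ctss then changed by 2.02 (adjusted p 0.000296), and Manba was no longer called, at a change of 0.69 (adjusted p 0.0726).

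Markers of other cells moved in the same comparison. Of the microglial list 10 of 15 were called higher and 0 lower, with a median change of 1.03. Its mean log2 level lay between 12.69 and 13.24 (median 13.14) in PBS samples and between 13.79 and 14.21 (median 14.00) in IL1B samples, and its summed level rose from a median of 314000 (267000 to 337000) to 526000 (462000 to 574000). The marker with the most signal was Siglech after PBS (16.77) and Csf1r after IL1B (17.12). The largest ratios were those of C1qb (3.31), C1qa (2.95), Trem2 (2.59) and Aif1 (2.54). None of the 34 lysosomal genes is on that list. Of the neutrophil and monocyte markers 9 of 10 were called higher, their sum rising from a median of 742 (631 to 1000) to 24800 (6330 to 45500), with Ngp and Ccr2 at background in every PBS sample and Lcn2 the strongest after IL1B. Of 8 markers of border-associated macrophages 3 were higher, the sum going from a median of 13400 to 23600. In the other direction 4 of 7 endothelial, 2 of 7 oligodendrocyte-lineage and 1 of 10 myelin markers were called lower, and astrocyte, neuronal and progenitor markers were not called. The part of these cells in the lysosomal change was not tested.

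**Figure D3:**
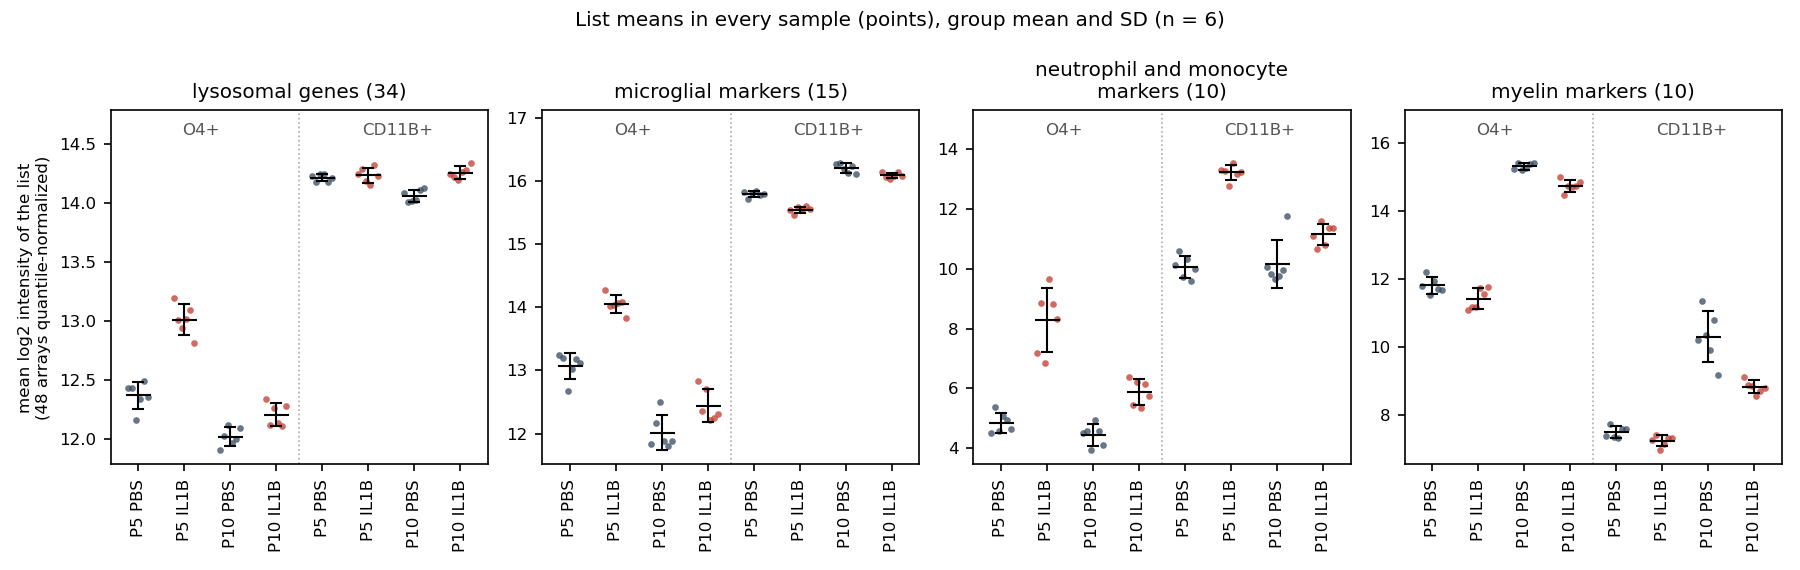
Mean log2 intensity (y axis, 48 arrays quantile-normalized together) of the 34 lysosomal genes, 15 microglial, 10 neutrophil and monocyte and 10 myelin markers in each sample (points) of the 8 groups (x axis), with group mean and SD (n = 6). In O4+ cells at P5 the lysosomal, microglial and neutrophil and monocyte means all lie higher after IL1B than after PBS.

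At P10, 5 days after the last injection, 3 of 34 genes were called higher with IL1B in O4+ cells (2.49% of probes) and 0 lower (1.42%). All 3 (Ctss, Ctsz and Ctsc) were among the 16 called at P5. The median change was 0.14, against -0.022 for all probes. The 75th percentile scaling moved the median probe to -0.19 and the matrix to -0.17, each with the same 3 genes called. Of all probes called, 63.6% were higher, against 42.5% and 51.8% with those scalings.

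Ctss lay between 12.06 and 12.93 (median 12.21) after PBS and between 12.85 and 13.72 (median 13.26) after IL1B at P10. PBS replicate 3 was its highest PBS sample and reached into the IL1B range. The change was 0.96 ± 0.188 (ratio 2.06, adjusted p 0.0096). Ctsz lay between 11.51 and 12.26 (median 11.75) after PBS and between 12.29 and 12.93 (median 12.67) after IL1B, the groups just apart, at a change of 0.80 ± 0.151 (adjusted p 0.00816). For Ctsc the samples lay between 8.53 and 9.23 (median 8.87) after PBS and between 9.39 and 9.89 (median 9.46) after IL1B. They did not overlap either, but the ratio of medians, 1.51, was at the threshold (change 0.73 ± 0.138, adjusted p 0.00824), and the call was lost with normexp correction (0.67).

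Cd68 at P10 had a ratio of 1.54 and an adjusted p of 0.0561, so it was not called. Cd68 was called with normexp correction (0.57) and with only probes well above background kept (0.55). Ctsh, at a ratio of 1.01, and Laptm5, at 1.16, had overlapping groups. Scarb2 went down without overlap, from a median of 11.72 to 11.29, a change of -0.46 short of the fold threshold. Within slide 4 (5 PBS arrays, 2 IL1B arrays) the median change of the 34 genes was 0.22, and within slide 5 (1 and 1) it was 0.16, with 25 genes above 0 on either. With slide in the model the same 3 genes were called.

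Microglial markers in O4+ cells at P10 were called higher in 6 of 15 cases (median change 0.50), with their sum at a median of 194000 (171000 to 241000) after PBS and 222000 (202000 to 277000) after IL1B. Neutrophil and monocyte markers were called higher in 6 of 10 cases, their sum at 764 (614 to 866) and 1620 (1010 to 2320), with Ngp, Ccr2 and Mpo at background in every PBS sample. Among the lists for other cells, 5 of 10 myelin markers were lower, 2 of 6 progenitor and 3 of 6 astrocyte markers were higher, and markers of border-associated macrophages, oligodendrocyte lineage, endothelial cells and neurons were not called. Their part in the lysosomal values was not tested.

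In CD11B+ cells at P5, 1 of 34 genes was called higher with IL1B (4.06% of probes) and 0 lower (5.25%). The median change of the 34 was -0.019, beside -0.015 for all probes, and it turned to 0.077 with the 75th percentile scaling, where the median probe moved to 0.11. Of all probes called, 43.6% were higher, 54.7% with that scaling and 54.1% with normexp correction. The gene called was Ctsh. It lay between 14.25 and 14.46 (median 14.39) after PBS and between 15.35 and 15.68 (median 15.56) after IL1B. The groups were tight and far apart, and the change was 1.17 ± 0.0664 (ratio 2.25, adjusted p 4.35e-07). Within slide 2 (1 PBS array, 4 IL1B arrays) it was 1.14, and with slide in the model 1.14 (adjusted p 0.000654).

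Smaller moves in those cells went both ways. Ctss rose by 0.50, from a median of 16.79 to 17.22, and Ctsc by 0.41, from 13.37 to 13.76, each without overlap and short of the fold threshold. Cd68 changed by -0.36, from a median of 15.98 to 15.65, and Laptm5 by -0.28, from 14.76 to 14.49, likewise without overlap. Ctsl was lowest of the 34 at -0.40. With the fold threshold dropped, 5 genes were higher and 9 lower, beside 4496 and 7518 of the 55681 probes.

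Microglial markers were called lower in 4 of 15 cases in the same samples (Gpr34, P2ry12, Fcrls and Sall1), the sum going from a median of 1440000 (1400000 to 1470000) to 1280000 (1240000 to 1330000), with Csf1r strongest in either group. All 10 neutrophil and monocyte markers were higher, with Lcn2 at a ratio of 36.9 and Ngp at 28.9, and their sum went from a median of 42500 (29900 to 66900) to 511000 (384000 to 576000). Called lower were 3 of 7 oligodendrocyte-lineage, 3 of 6 progenitor and 4 of 7 endothelial markers, with 1 endothelial and 1 astrocyte marker higher, 2 myelin markers higher and 2 lower, and none of border-associated macrophages or neurons. The part of any of these in the values of the lysosomal genes was not tested.

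At P10 in CD11B+ cells, 1 gene was called higher (1.09% of probes) and 0 lower (1.08%). The probes called, 609 higher and 601 lower, came to 1415 and 1318 without PBS replicate 6 and to 211 and 198 without PBS replicate 2. The median change was 0.22, beside 0.0011 for all probes. Of all probes called, 50.3% were higher, and 64.9% with the deposited matrix. Ctsz was the gene called. It lay between 15.63 and 16.23 (median 15.87) after PBS and between 16.38 and 16.71 (median 16.47) after IL1B, without overlap. Its change was 0.60 ± 0.0907, at a ratio of 1.52 (adjusted p 0.0137). This call rested on arrays of different slides: within slide 9 (2 PBS arrays, 5 IL1B arrays) Ctsz changed by 0.37, and with slide in the model it was not called (0.37, adjusted p 0.312). It was also not called with normexp background correction (0.59). Within that slide the median change of the 34 genes was 0.13, with 29 above 0. In the same comparison 6 of 10 myelin, 3 of 7 oligodendrocyte-lineage and 1 of 5 neuronal markers were lower, 1 astrocyte and 1 border-associated macrophage marker were higher, and 0 of 15 microglial, 0 of 10 neutrophil and monocyte, 0 of 6 progenitor and 0 of 7 endothelial markers were called. The neutrophil and monocyte list nevertheless had a median change of 1.16, with 9 of 10 markers above 0. Its sum went from a median of 38200 (30800 to 174000) to 104000 (64600 to 131000), and PBS replicate 6 stood apart from its group. The part of these markers in the lysosomal values was not tested.

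**Figure D4:**
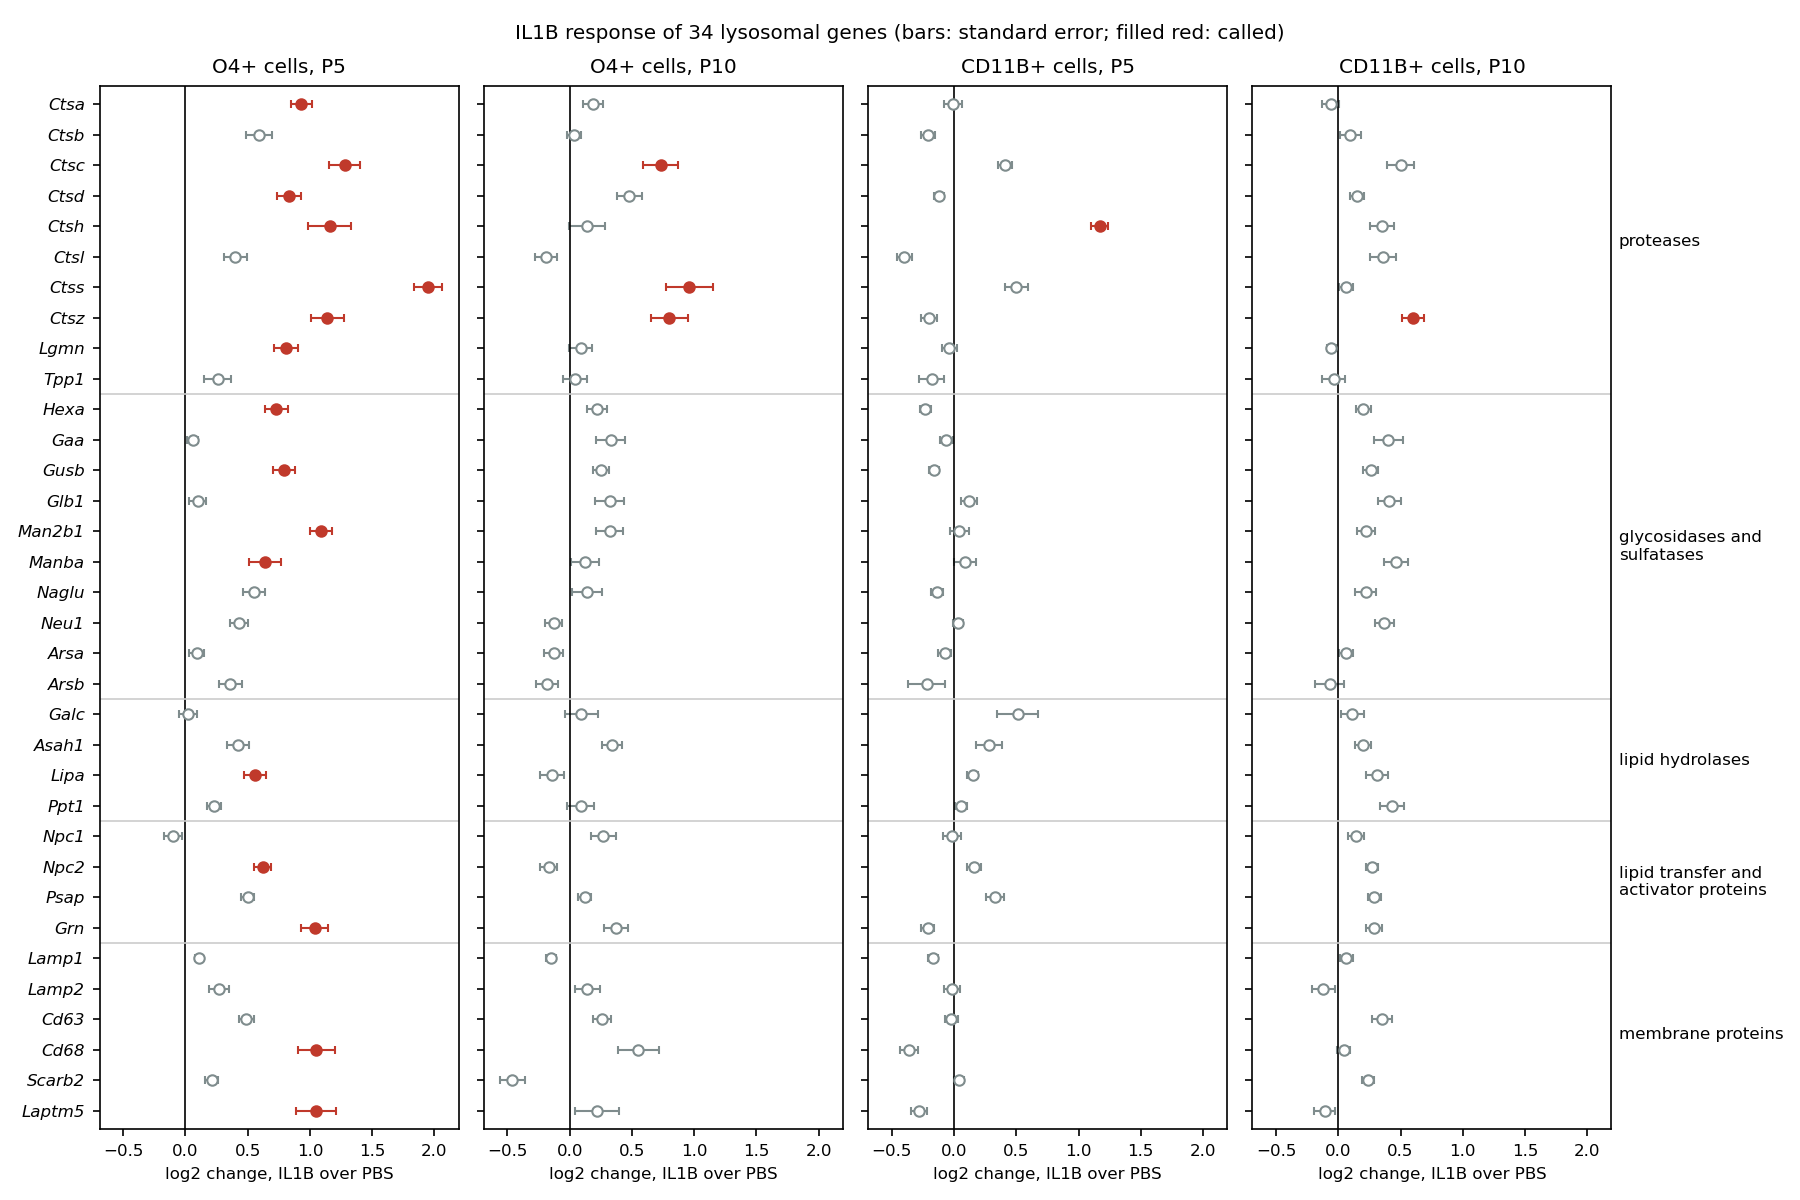
Log2 change with IL1B (x axis, with standard error) of the 34 lysosomal genes (y axis, grouped by role) in O4+ and CD11B+ cells at P5 and P10, n = 6 arrays a group, called genes filled. Called genes number 16 in O4+ cells at P5, 3 in O4+ cells at P10, 1 in CD11B+ cells at P5 and 1 in CD11B+ cells at P10.

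Whether responses differed was tested by interaction terms, called at an adjusted p under 0.05. At P5, 22 genes responded more in O4+ than in CD11B+ cells (6.95% of probes) and 0 less (3.78%). The median difference between responses was 0.57, and 0.45 with the 75th percentile scaling, which moved the median probe to -0.14. That scaling gave 18 genes (without Neu1, Arsb, Npc2 and Lamp1), the matrix 15 (without those 4, Manba, Lipa and Cd63) and slide in the model 19 (without Manba, Arsb and Lipa). Scan day in the model left out Manba and Arsb and added Galc as a gene that responded less (-0.63). Ctss differed most, by 1.58 (adjusted p 2.37e-07). Ctsh, called in either cell type, did not pass this test (0.10, adjusted p 0.813). With IL1B at P5 the mean level of the microglial list went from a median of 13.14 to 14.00 in O4+ samples. In CD11B+ samples it went from 15.93 to 15.66, each on the scale of its own cell type. Neutrophil and monocyte markers rose in both. The part of such shifts in the differences between responses was not tested.

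At P10, 1 gene responded more in O4+ cells (Ctss, 0.94, adjusted p 0.007; 3.9% of probes) and 5 responded less (Ctsl, Neu1, Lipa, Npc2 and Scarb2; 3.67%). With the 75th percentile scaling or the deposited matrix, 1 responded more and 10 less, as the median probe moved to -0.18 or -0.22. Of all probes that passed, 51.5% were positive, against 19% and 14.8% with those scalings. Scarb2 had the largest of the negative values, -0.71 (adjusted p 0.00083). With slide in the model Ctsl (-0.41, adjusted p 0.217), Neu1 (-0.34, adjusted p 0.0538) and Lipa (-0.5, adjusted p 0.102) did not pass and Man2b1 did. That left 2 genes that responded more and 2 that responded less, and the median of the 34 turned from -0.032 to 0.10.

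Between ages, the IL1B response of O4+ cells was smaller at P10 in 18 genes (5.36% of probes) and larger in 1 (7.75%), which was Npc1 (0.37, adjusted p 0.0494). Npc1 did not pass with the 75th percentile scaling (0.34, adjusted p 0.0877) or normexp correction (0.31, adjusted p 0.0645). Nor did it with slide in the model (0.49, adjusted p 0.0622) or the arrays apart in a marker list left out (0.39, adjusted p 0.0504). The 75th percentile scaling moved the median probe to -0.11 and the positive share of all probes that passed from 59.1% to 36.5%. Among the genes called at both ages, the fall passed for Ctss (-0.99, adjusted p 0.00474), though not with slide in the model (-0.93, adjusted p 0.0567). It did not pass for Ctsz (-0.34, adjusted p 0.342) or Ctsc (-0.55, adjusted p 0.0616). Ctsc did pass with normexp correction (-0.58), with only probes well above background kept (-0.55) and with the mean of all probes (-0.58). In CD11B+ cells the response was larger at P10 in 15 genes (10.6%) and smaller in 2, Ctsh (-0.82, adjusted p 3.22e-05) and Ctss (-0.44, adjusted p 0.00595; 6.31%). With slide in the model 3 genes passed in CD11B+ cells, 2 of them (Ctsl and Ctsh) among the 17, and Psap was added. The deposited matrix moved the median probe to 0.14 there and the positive share of all probes that passed from 62.6% to 82.6%.

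Age was compared in PBS samples. As P5 and P10 arrays shared no slide and no scan day, a change with age cannot be told apart from a shift between slides or scan days. From P5 to P10 in O4+ cells, 10 genes were called lower (8.98% of probes) and 1 higher (7.85%), with a median change of -0.29 beside 0.017. With the 75th percentile scaling, which moved the median probe to 0.21, 7 were lower and 5 higher, 8 of them among the 11, and the deposited matrix, at 0.22, gave 7 and 5 as well. The median of the 34 genes was then -0.054 and -0.052. The genes added as higher were Ctsl, Arsb, Npc2 and Lamp1 under either, and Ctsd, Ctsh and Man2b1 lost their calls.

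All 10 genes that fell with age were among the 16 raised by IL1B at P5. The comparisons share the O4+ PBS arrays at P5, so the overlap is no separate result and the values are set side by side. Ctsz fell by 1.58 ± 0.144 (adjusted p 6.16e-06), from samples between 12.98 and 13.65 at P5 to samples between 11.51 and 12.26 at P10. Its P10 samples were all below its P5 samples. Cd68 changed by -1.50 ± 0.145 (adjusted p 9.77e-06), its P10 samples lying between 10.82 and 11.60 (median 11.01). For Laptm5, at samples between 9.96 and 10.76 (median 10.26) at P10, the change was -1.42 ± 0.181 (adjusted p 8.01e-05). Both genes separated by age without overlap.

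Ctss changed by -1.31 ± 0.166 with age, Ctsc by -1.16 ± 0.137, Ctsd by -0.97 ± 0.0976 and Grn by -0.81 ± 0.105, all without overlap. Gusb, at 11.07 to 11.31 (median 11.10) at P10, changed by -0.78 (-0.46 and not called when all probes were averaged), and Man2b1, at 12.64 to 13.13 (median 12.71), by -0.64. Ctsh overlapped between ages and changed by -0.63 ± 0.189 (adjusted p 0.0226). It was not called with slide as a random block (-0.57, adjusted p 0.143).

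Scarb2 went the other way. It lay between 10.52 and 10.72 (median 10.65) at P5 and between 11.53 and 12.10 (median 11.72) at P10. Every P10 sample was above every P5 sample, and the change was 1.12 ± 0.0949 (ratio 2.10, adjusted p 3.56e-06). It was 1.17 (adjusted p 6.61e-05) with slide as a random block. As ages share no slide, no within-slide value exists for the age comparisons. The block uses the slides within each age and cannot remove a shift between the ages.

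Over the same step in O4+ cells, 12 of 15 microglial markers were lower (median -1.15) and 0 higher, and 9 of 10 myelin markers were higher (median 2.80). Neutrophil and monocyte markers were lower in 2 of 10 cases, endothelial in 3 of 7, astrocyte in 1 of 6 and progenitor in 3 of 6 with 1 higher. Of the rest, 2 of 7 oligodendrocyte-lineage and 1 of 5 neuronal markers were higher, and border-associated macrophages had 1 higher and 1 lower. The part of these shifts in the lysosomal values was not tested.

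In CD11B+ cells 4 genes were called lower at P10 than at P5 (3.64% of probes) and 0 higher (4.63%), with a median of -0.14 beside 0.0024. They were Ctsl, Cd63, Ctsb and Ctsz. Ctsl, a cysteine endopeptidase, lay between 16.70 and 16.89 (median 16.78) at P5 and between 15.76 and 16.11 (median 15.95) at P10, at a change of -0.84 ± 0.0706 (adjusted p 1.73e-05). Cd63 lay between 16.36 and 16.47 (median 16.38) at P5 and between 15.43 and 15.85 (median 15.66) at P10, and changed by -0.73 ± 0.0687 (adjusted p 3.28e-05). Neither overlapped between ages. Ctsb and Ctsz changed by -0.63 and -0.61, at ratios of medians of 0.645 and 0.646. Over the same step 4 of 15 microglial markers were higher (Tmem119 at a ratio of 2.86), 7 of 8 markers of border-associated macrophages were lower, 9 of 10 myelin, 6 of 7 oligodendrocyte-lineage and 2 of 6 progenitor markers were higher, 5 of 7 endothelial and 1 of 6 astrocyte markers were lower, neurons had 1 higher and 3 lower, and none of the neutrophil and monocyte markers was called. Their part in the values was not tested.

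Across genes, members that were far lower in O4+ than in CD11B+ cells tended to be those that rose with IL1B in O4+ cells. The difference between cell types in PBS samples at P10 and the IL1B change of O4+ cells at P5, which share no array, correlated over the 34 genes at Pearson -0.87 and Spearman -0.90. The same difference against the IL1B change of CD11B+ cells at P5 gave 0.04 and 0.18. These 2 relations were computed across genes, which are not independent replicates and share probes and array design. At one end Ctss paired -4.55 with 1.95, and at the other Galc paired 0.79 with 0.021.

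**Figure D5:**
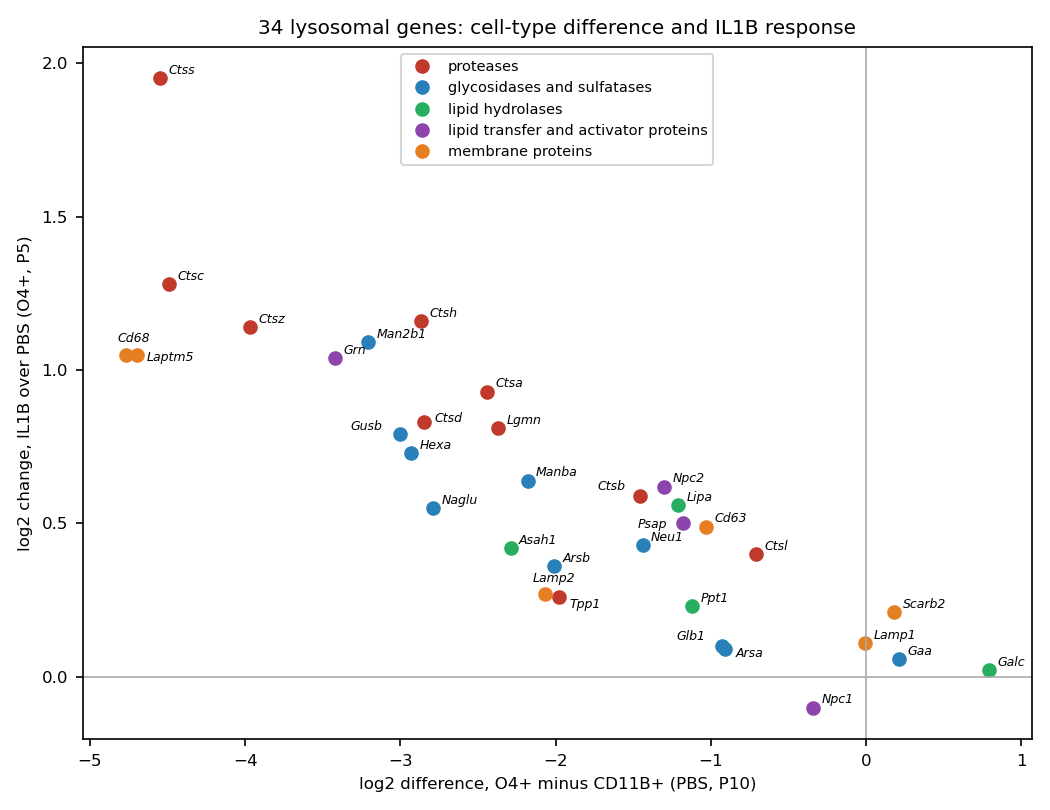
Log2 difference between O4+ and CD11B+ cells in PBS samples at P10 (x axis) against the log2 change with IL1B in O4+ cells at P5 (y axis) for the 34 lysosomal genes (points, coloured by role). Pearson's r across genes is -0.87, with Ctss at the upper left and Galc at the lower right.

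Other parts of the lysosomal pathway were counted in the same way, first with IL1B in O4+ cells at P5. There 3.45% of all probes were called higher and 1.47% lower. Of 24 other lysosomal hydrolases 6 were called higher and 0 lower (median change 0.17), with the largest ratios for Naaa (2.27), Pla2g15 (2.08) and Ctse (2.02). None of 17 subunits of the proton pump that acidifies the lysosome (median 0.0065) and none of 13 genes for the sorting of its enzymes (median -0.034) was called. Among 16 transporters and channels 3 were higher (median 0.072), which were Mcoln2 (ratio 8.0), a cation channel, Slc15a3 (4.07), a peptide and histidine carrier, and Slc11a1 (3.67), a metal ion carrier of phagosomes. Of 13 regulators measured, 1 was higher, Tfec (1.89), a member of the MiT/TFE family, at a list median of 0.14. Of 9 cystatins, inhibitors of cysteine cathepsins, 6 were higher (median 4.55), and of 12 phagosome and scavenger genes 10 were higher (median 1.52), led by Msr1 (5.04), Axl (3.45), Ncf1 (3.38) and Fcgr2b (3.06).

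In O4+ cells at P10 with IL1B, 2.49% of all probes were called higher and 1.42% lower. Other hydrolases gave 4 higher and 1 lower, cystatins 6 higher, transporters 3 higher and phagosome genes 3 higher, and the pump, sorting and regulator lists 0. Slc15a3 (1.94) and Slc11a1 (1.90) had signal on all arrays of both groups, and Acp5, an acid phosphatase, rose at a ratio of 1.72.

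In CD11B+ cells at P5 with IL1B, 4.06% of all probes were called higher and 5.25% lower. Of 9 cystatins, 5 were called higher and 1 lower, led by Stfa3 (ratio 30.1), Stfa2 (25.7), Stfa2l1 (24.7) and Stfa1 (16.8), the stefin A genes. Marco (21.9) and Axl (4.99) led 5 phagosome genes called higher, and Mcoln2 (3.83), Slc11a1 (1.79) and Slc15a3 (1.59) were the 3 transporters. Atp6v0d2, 1 of the 17 pump subunits, was lower (log2 change -1.54), Igf2r, the mannose 6-phosphate receptor, was the 1 sorting gene higher (1.78), and no other hydrolase or regulator was called. At P10 in these cells, Gpnmb (3.21), Axl (2.83), Cybb (2.13) and Msr1 (1.69) were higher among phagosome genes with 1 lower, Ctse (2.72) was the 1 other hydrolase higher with 2 lower, and Mcoln2 (2.52) and Cst7 (log2 change 0.64) were the 1 transporter and 1 cystatin called. The pump, sorting and regulator lists gave 0. Of all probes, 1.09% were called higher and 1.08% lower in this P10 comparison.

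With age in O4+ cells, beside 7.85% of all probes called higher and 8.98% lower, 2 of 13 regulators were higher at P10, Tfeb (ratio 2.67) and Mitf (1.58), and 1, Tfec, was lower. Other hydrolases gave 2 higher and 6 lower, among them Ctsk (13.9), a collagen-cutting cathepsin, higher and Acp5 (log2 change -1.94) lower. Transporters gave 3 higher, led by Abca2 (3.33), and 3 lower, led by Slc15a3 (-1.83). The pump gave 1 higher and 1 lower, sorting genes 2 higher and 1 lower, cystatins 5 lower and phagosome genes 7 lower.

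In CD11B+ cells with age, 4.63% of all probes were called higher and 3.64% lower. Other hydrolases gave 3 higher and 2 lower, the pump 1 and 3, transporters 1 and 2, and phagosome genes 1 and 4. Cystatins gave 2 lower, sorting genes 1 lower and regulators 3 lower. Mitf (log2 change -0.78) and Tfec (-0.73) were among the latter.

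Between cell types in PBS samples, 21.9% of all probes were lower in O4+ cells and 19.8% higher at P5, and 20.2% and 22.2% at P10. Other hydrolases were lower in O4+ cells in 16 of 24 cases at P5 and 15 at P10, with 3 higher at each age. Of the pump subunits 5 of 17 were lower at each age, with 0 higher at P5 and 3 at P10. Sorting genes gave 9 and 8 lower of 13, with 3 higher at each age, led by Igf2r (7.14 at P5 and 12.4 at P10). Transporters gave 9 and 8 lower of 16 with 3 higher, led by Slc17a5, the sialic acid exporter (6.53 and 10.5). Regulators gave 7 and 6 lower of 13, with 0 and 3 higher. All 12 phagosome genes were lower at either age, as were 8 and 7 of 9 cystatins, with 1 higher.

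The 10 members with more than 1 probe allow a check within a gene. In O4+ cells at P5 with IL1B, 9 of the 10 had the same call on all their probes, and in the 8 comparisons between groups the number was between 8 and 10. A gene called on no probe counts as the same here. With IL1B in O4+ cells at P5, Cd68, Ctsa, Ctsc, Ctsd and Laptm5 were called on all their probes and Gusb on the chosen one alone. In CD11B+ cells at P5 none of the 10 was called on any probe. At P10 there, Ctsc and Gaa were called on a probe other than the chosen one, and the rest on none. No member had probes called in opposite directions in 1 comparison. Of the 34 members, 18 were called with IL1B in none of the 4 comparisons of treatment. In each of these comparisons, between 1.08% and 5.25% of all probes were called in a given direction. Those shares are for 1 comparison and 1 direction. The share of all probes called in none of the 4 was not computed, so the 18 has no like figure beside it.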

How the data were processed

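The authors hybridized Cy3-labelled RNA of 48 samples to Agilent 8x60K mouse arrays. The deposited array files hold Agilent Feature Extraction 10.7.3.1 output, with background-subtracted signal as intensity per the file headers (probe positions on mm9). The deposited series matrix holds a ratio scale per array, tested as an alternative. Spots marked as non-uniform or as population outliers (0.188% of values) were left out. Spots of a probe were averaged on the log2 scale after quantile normalization, over 24 arrays within a cell type or all 48 between cell types. Comparisons of groups of 6 used limma 3.58.1 (R 4.3.3, data.table version 1.17.8) with Benjamini-Hochberg adjustment over 55681 probes, and limma was tested on simulated data. Calls needed an adjusted p under 0.05 and a ratio of medians over 1.5, interactions the former alone. Samples were treated as unpaired. Each gene was read from its probe with the highest mean signal. The 10 members called in most comparisons are given by sample, and other lists name at most 4 called genes per comparison by ratio. Members and lists were chosen with earlier results of these data known. Alternatives were 75th percentile scaling, normexp background correction (offset 50), matrix values, and only probes well above background on all arrays of at least 1 group. Others were the methods' test, no fold threshold, blocks for slide, scan day or replicate number, mean of all probes, and each array left out. The last, chosen after seeing the data, left out 5 arrays apart in a marker list.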

Additional observations from a re-analysis of the deposited data

Results flagged for a closer look

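A sample stood far from the other 5 of its group in 7 of 96 groups tested, for the 10 members given by sample and the means of the lysosomal and microglial lists, and chance flags about 1 in 20 groups. Low samples were CD11B+ P5 IL1B replicate 3 for Grn (15.88) and for Man2b1 (15.86). High samples were O4+ P10 PBS replicate 6 for Gusb (11.31) and Man2b1 (13.13), CD11B+ P10 IL1B replicate 6 for Man2b1 (16.58), CD11B+ P10 PBS replicate 6 for Ctsc (13.56) and CD11B+ P5 PBS replicate 5 for Cd68 (16.23).

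Responses to IL1B that differed between ages or cell types by an interaction test are listed as well. In O4+ cells the response was smaller at P10 than at P5 for Ctsh (-1.03), Ctss (-0.99), Laptm5 (-0.83), Man2b1 (-0.77), Grn (-0.67) and Gusb (-0.54). Laptm5 did not pass with slide in the model (-0.92, adjusted p 0.107) or with the deposited matrix (-0.71, adjusted p 0.0687), nor did Ctss with slide (-0.93, adjusted p 0.0567). In CD11B+ cells it was larger at P10 for Ctsz (0.80), Grn (0.50), Gusb (0.42), Cd68 (0.40) and Ctsd (0.27), and smaller for Ctsh (-0.82) and Ctss (-0.44). With slide in the model all of these but Ctsh missed the threshold. Ctsz was then at 0.48 (adjusted p 0.107), Grn at 0.36 (0.0924), Gusb at 0.24 (0.165), Cd68 at 0.33 (0.236), Ctsd at 0.15 (0.519) and Ctss at -0.41 (0.215). Ctsd also missed the threshold with the 75th percentile scaling (adjusted p 0.416) and the matrix (0.109). Ctss missed it with the matrix (0.198), and Cd68 with that scaling (0.056) and the mean of all probes (0.108). At P5 it was larger in O4+ than in CD11B+ cells for Ctss (1.58), Cd68 (1.42), Ctsz (1.37), Laptm5 (1.37), Grn (1.27), Man2b1 (1.08), Ctsd (0.99), Gusb (0.98) and Ctsc (0.96). At P10 this held for Ctss (0.94). The part of shifts in cell markers in these differences was not tested.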

How the results depend on the processing

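Of 2793 values of genes called in the main analysis, recomputed under other settings, 2674 kept their direction and call, 119 kept the direction without the call and 0 reversed. This total pools unlike settings. Dropping the fold threshold could not end a call (97 of 97 kept), and the filter on background kept 161 of 161. Values with 1 array left out made up 1164, of which 27 lost the call. With a slide block 29 of 161 lost it, with the deposited matrix 21 and with the 75th percentile scaling 18. Among genes not called, Gaa turned from 0.20 to -0.59 between cell types at P5 with the deposited matrix. Counts moved past 1.5 times as follows, and the cause was not tested. Without a fold threshold they were 28 (from 16) and 10 (from 3) with IL1B in O4+ cells at P5 and P10, 14 and 12 (from 1 each) in CD11B+ cells, and 25 (from 11) and 19 (from 4) with age in O4+ and CD11B+ cells. All probes higher and lower then numbered 3769 and 6330, 3001 and 3040, 4496 and 7518, 1880 and 1766, 9681 and 9269, and 6661 and 5181 in that order, of 55681. With IL1B in CD11B+ cells at P5 the count was 2 with the 75th percentile scaling and with the deposited matrix, which added Ctss. At P10 it was 2 with that scaling and with the mean of all probes (Ctsc added), 5 with the matrix (Ctsc, Glb1, Manba and Ppt1 added), 0 in limma with slide in the model, where 2 of 55681 probes were called, and 2 (Manba added) with 5 arrays apart in a marker list left out, an alternative chosen after seeing the data. The interaction of age and IL1B in CD11B+ cells gave 9 with the 75th percentile scaling and 3 with slide in the model (from 17), and that of cell type and IL1B at P10 gave 11 with that scaling and with the matrix (from 6).

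With each array left out in turn, counts ran from 14 to 17 and 2 to 4 (IL1B, O4+ cells, P5 and P10), 1 to 2 and 1 to 3 (IL1B, CD11B+ cells), 10 to 13 and 3 to 6 (age, O4+ and CD11B+ cells), and 30 to 31 and 30 to 30 (cell types, P5 and P10). In O4+ cells with IL1B at P5, Lipa (0.53 to 0.56) lost its call without PBS replicate 1, 3 or 6 or IL1B replicate 1, 2 or 3, Manba (0.59 to 0.61) without IL1B replicate 1, 4 or 5, and Ctsb (0.62 to 0.63) gained one without IL1B replicate 2, 3 or 6. At P10 Ctsc (0.66 to 0.74) lost it without PBS replicate 1, 5 or 6 or IL1B replicate 1, 2 or 3, and Cd68 gained one without PBS replicate 3 (0.65) or IL1B replicate 2 (0.62), Ctsd (0.49 to 0.54) without IL1B replicate 2, 4 or 5. In CD11B+ cells Galc was added at P5 without IL1B replicate 3 (0.60) or 4 (0.59), and at P10 Manba (0.48 to 0.50) without IL1B replicate 2, 3 or 4 and Ctsc without IL1B replicate 4 (0.50) or 6 (0.55). With age in O4+ cells Ctsh (-0.58 to -0.55) lost its call without P5 replicate 2, 4 or 5, Arsb (0.57 to 0.60) gained one without P5 replicate 1, 3 or 5 or P10 replicate 1, 2 or 6, and Asah1 (-0.65 to -0.62) without P10 replicate 2, 3 or 5. In CD11B+ cells Ctsb (-0.62 to -0.58) lost it without P10 replicate 3, 4 or 6, and Manba (-0.48 to -0.46) gained one without P5 replicate 1, 3 or 5, Arsb (0.60 to 0.61) without P5 replicate 3, 4 or 6 and Ctsh (0.55 to 0.59) without P10 replicate 1, 2 or 4. Lamp1 (-0.59 to -0.57) was not called between cell types at P5 without PBS replicate 2, 3 or 6 of O4+ cells or 3, 4 or 6 of CD11B+ cells.

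Same-numbered samples correlated at 0.05 to 0.36 between cell types at P5 and -0.04 to 0.33 at P10, with 5 of 6 pairs over 0.1 at each age and 4 and 5 of 6 samples closest to their own number. That is a hint from the data. Between PBS and IL1B samples of O4+ cells, same-numbered samples correlated at 0.07 to 0.31 at P5 (5 pairs over 0.1) and -0.13 to 0.79 at P10 (3 pairs). There 2 samples were closest to their own number at each age. Between PBS and IL1B samples of CD11B+ cells, 1 pair was over 0.1 at each age. The methods take O4+ and CD11B+ cells one after the other from the same suspension, but no label says that a number marks it, and numbers were not taken as pairs. With a replicate block in the model, Ctsh with age in O4+ cells (-0.63, adjusted p 0.0557) and Ctsb in the interaction of age and IL1B in CD11B+ cells (0.31, adjusted p 0.0566) lost their calls and no other call was lost. Manba was added to the interaction of age and IL1B in O4+ cells, and Ctsd, Ppt1 and Lamp1 to that of cell type and IL1B at P10 (from 6 to 9). Interactions were not refitted by the methods' test or with an array left out. Normexp correction also ended the calls of Manba and Lipa (IL1B, O4+ cells, P5), Ctsb (age, CD11B+ cells) and Lamp1 (cell types, P5). Pools of brains, slides that differ between groups, and bulk samples of mixed cells limit what a change in a sorted sample can say about a cell type.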
